A study of Mus musculus with 6 samples.

Results

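The genes described here are 40 listed mouse genes of glycolysis and of the response to low oxygen, read in immortalized mouse embryonic fibroblasts with and without FHL2, a LIM-domain protein that binds transcription factors and focal adhesion proteins. They were chosen by name along the pathway, from glucose uptake to the fate of pyruvate, and then as the oxygen-regulated subunit of hypoxia-inducible factor (HIF), its oxygen sensors and its targets. For each gene the probe set that carried its symbol alone and had the highest mean over the 6 arrays was taken. On that rule 36 of the 40 genes were measured, out of 18193 genes on the array. Gpi1, Gapdh, Eno1 and Bnip3l had no probe set of their own outside the control probe sets and were not analysed as members.

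FHL2 KO denotes 3 fibroblast clones (E, H and J) derived from FHL2-/- mice, and WT denotes 3 clones (E, F and I) of wild type cells. All 6 clones had immortalized spontaneously in culture, so each array reports 1 selected clone and not a fresh cell population. The labels do not state the strain, the age or number of embryos, the passage, the medium, the glucose supply or the oxygen level. Nor do they say that the clones of a genotype came from different embryos, and the p-values therefore cover no more than the clone-to-clone spread. Clone E of FHL2 KO and clone E of WT share a letter, and the labels do not say what the letter means. Each value is 1 array per clone of total RNA, on the log2 intensity scale, where a difference of 1 is a doubling of signal. RNA of a whole culture cannot tell apart fewer cells of a type and less RNA per cell.

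Glycolysis splits glucose into pyruvate in a fixed sequence. A transporter brings glucose in, hexokinase traps it, phosphofructokinase commits it, aldolase cleaves it, and the triose steps return ATP. Lactate dehydrogenase interconverts pyruvate and lactate, while pyruvate dehydrogenase kinases hold pyruvate back from the mitochondria. HIF raises the transcription of many of these genes when oxygen is scarce, because the prolyl hydroxylases that mark its alpha subunit for destruction need oxygen. Immortalized fibroblasts in culture also use glycolysis with oxygen present.

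HIF binds a short core, and the promoters of the members that passed the test and have 1 start site are shown so that its letters can be read beside the values. Each sequence is the 250 bases before the RefSeq start site, on the strand of the gene and in assembly GRCm38.p6. Capitals mark each ACGTG or GCGTG on either strand, so that CACGT and CACGC are the same cores read from the other strand.

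Slc2a1 promoter, chr4:119108495-119108744, plus strand: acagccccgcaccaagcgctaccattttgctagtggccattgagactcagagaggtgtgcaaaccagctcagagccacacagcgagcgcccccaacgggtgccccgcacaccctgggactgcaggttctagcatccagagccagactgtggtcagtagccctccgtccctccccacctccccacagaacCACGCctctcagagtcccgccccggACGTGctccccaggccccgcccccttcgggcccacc
Hk2 promoter, chr6:82774455-82774704, minus strand: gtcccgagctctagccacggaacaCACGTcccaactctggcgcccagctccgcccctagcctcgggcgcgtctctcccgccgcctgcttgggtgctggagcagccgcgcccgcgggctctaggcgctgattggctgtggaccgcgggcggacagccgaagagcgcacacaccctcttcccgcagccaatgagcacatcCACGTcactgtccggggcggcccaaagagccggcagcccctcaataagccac
Pfkp promoter, chr13:6648772-6649021, minus strand: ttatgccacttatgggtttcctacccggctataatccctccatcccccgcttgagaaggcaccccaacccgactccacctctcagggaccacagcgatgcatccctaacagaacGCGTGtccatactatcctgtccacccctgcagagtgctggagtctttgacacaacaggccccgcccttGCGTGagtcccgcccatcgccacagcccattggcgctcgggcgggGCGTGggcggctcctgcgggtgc
Pgk1 promoter, chrX:106186850-106187099, plus strand: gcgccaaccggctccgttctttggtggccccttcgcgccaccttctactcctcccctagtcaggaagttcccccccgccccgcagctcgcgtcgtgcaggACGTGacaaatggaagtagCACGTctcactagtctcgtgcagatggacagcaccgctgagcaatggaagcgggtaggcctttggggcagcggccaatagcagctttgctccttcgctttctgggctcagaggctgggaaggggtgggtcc
Egln3 promoter, chr12:54203875-54204124, minus strand: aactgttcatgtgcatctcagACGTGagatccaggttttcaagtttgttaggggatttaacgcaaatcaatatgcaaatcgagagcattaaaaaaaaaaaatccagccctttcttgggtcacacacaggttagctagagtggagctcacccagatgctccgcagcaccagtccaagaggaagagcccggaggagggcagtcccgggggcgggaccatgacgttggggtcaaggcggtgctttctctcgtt
Ldhb promoter, chr6:142507958-142508207, minus strand: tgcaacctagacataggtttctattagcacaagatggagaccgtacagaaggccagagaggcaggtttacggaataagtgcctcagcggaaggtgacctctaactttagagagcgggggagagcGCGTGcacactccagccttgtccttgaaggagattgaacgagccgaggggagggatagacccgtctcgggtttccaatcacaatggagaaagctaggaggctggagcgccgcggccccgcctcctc

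The first 5 of these genes fell in FHL2 KO clones and Ldhb rose. Slc2a1 carries 1 ACGTG and 1 GCGTG, Hk2 has 2 ACGTG, Pfkp has 3 GCGTG and Pgk1 has 2 ACGTG. Egln3 has 1 ACGTG and Ldhb has 1 GCGTG. Over the full window of 300 bases (250 before to 50 after the start), at least 1 core was found in 42 of the 52 windows of the 37 members that had one, or 80.8%, against 43.8% of all 32851 windows. ACGTG alone was found in 55.8% of the members' windows against 19.6% of all, and GCGTG in 57.7% against 32.4%. CACGTG, which contains ACGTG on each strand and is bound by other factors, was found in 13.5% against 7.15%. The members' windows had a median GC content of 62.2%, against 52.7% over all windows, and its part in these shares was not tested. Of the windows of members that fell, 7 of 9 held a core, as did 2 of 3 windows of members that rose and 8 of 9 windows of the HIF targets. Windows of 1 gene can overlap, as for Aldoa, Eno1 and Pfkm, so that the same core can be counted more than once. The members were listed as glycolytic and HIF-responsive genes, so their higher share is no result of these arrays. A match is a description of letters and not a binding site.

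Fhl2 itself, the targeted gene, was at 6.01, 6.44 and 6.57 in FHL2 KO clones E, H and J, and at 9.88, 8.57 and 9.64 in WT clones E, F and I. In the limma fit its signal fell by 3.02 (SE 0.35, adjusted p = 0.004). Where its probe set lies relative to the deleted part of the gene was not examined. FHL2 KO clone H stood apart from the other arrays: across genes it correlated at 0.964 with FHL2 KO clone E and at 0.968 with clone J, while clones E and J correlated at 0.991 and the WT clones at 0.988 to 0.991. Xist, the RNA of the inactive X chromosome, was at 9.82 in clone H, against 5.03 and 5.11 in FHL2 KO clones E and J and 4.69 to 5.004 in WT clones. The members' counts are therefore also given without clone H. Fibroblast markers averaged 12.28 to 12.35 in FHL2 KO clones and 12.12 to 12.37 in WT clones, over 8 genes of which 1 (Pdgfra) was higher and 2 (Pdgfrb and Thy1) were lower. Mean levels in FHL2 KO and WT clones were 4.34 to 4.40 and 4.31 to 4.70 for 5 epithelial markers, 4.23 to 4.86 and 3.38 to 3.95 for 5 endothelial markers, and 4.35 to 4.49 and 4.47 to 4.63 for 5 blood and macrophage markers. They were 4.26 to 4.42 and 4.22 to 4.74 for 4 muscle markers, and 2.80 to 3.11 and 3.36 to 3.90 for 3 adipocyte markers. In these lists Epcam and Tek were higher and Fabp4 was lower in FHL2 KO clones. Tek differed by 4.27, while the other 4 endothelial markers differed by -0.30 to 0.37 and did not pass. Fabp4 differed by -1.93, while the other 2 adipocyte markers differed by -0.06 and 0.14 and did not pass. The part of these marker differences in the results was not tested.

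The glycolytic genes from uptake to pyruvate stood lower in FHL2 KO clones, with Aldoc as the exception, and 6 of the 16 measured passed. Outside them Ldhb and Pdk2 rose, Egln3 fell, and 0 of the 9 HIF targets passed in limma. Of the 36 members, 7 fell (Slc2a1, Hk1, Hk2, Pfkp, Pgk1, Pkm and Egln3), 2 rose (Ldhb and Pdk2) and 27 did not pass an adjusted p of 0.05 in limma. Over all 18193 genes tested, 19.0% passed in either direction, 10.0% as lower and 9.04% as higher in FHL2 KO. The 7 members that fell make 19.4% of the members measured and the 2 that rose 5.56%. Most members are well-expressed genes: 28 of 36 lay at or above the median gene level. With the fit repeated on the genes at that level alone, 19.0% of them passed as lower and 15.5% as higher. In that fit 7 of the 28 members passed as lower and 2 as higher, so that the members' count of lower genes lies nearer to the background there. All 7 were genes from uptake to pyruvate, of which 13 lay at that level. In the fit of all genes the lower calls lay mainly among the 16 measured genes from uptake to pyruvate, 6 of 16 or 37.5%. Of these genes 0 were higher, also at an unadjusted p under 0.05, and 9 were lower at that level, against 16.7% higher and 16.5% lower among all genes. Of these 16, 15 had a difference below 0, and their median was -0.70, against 0.04 over all genes and -0.23 over all 36 members.

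**Figure D1:**
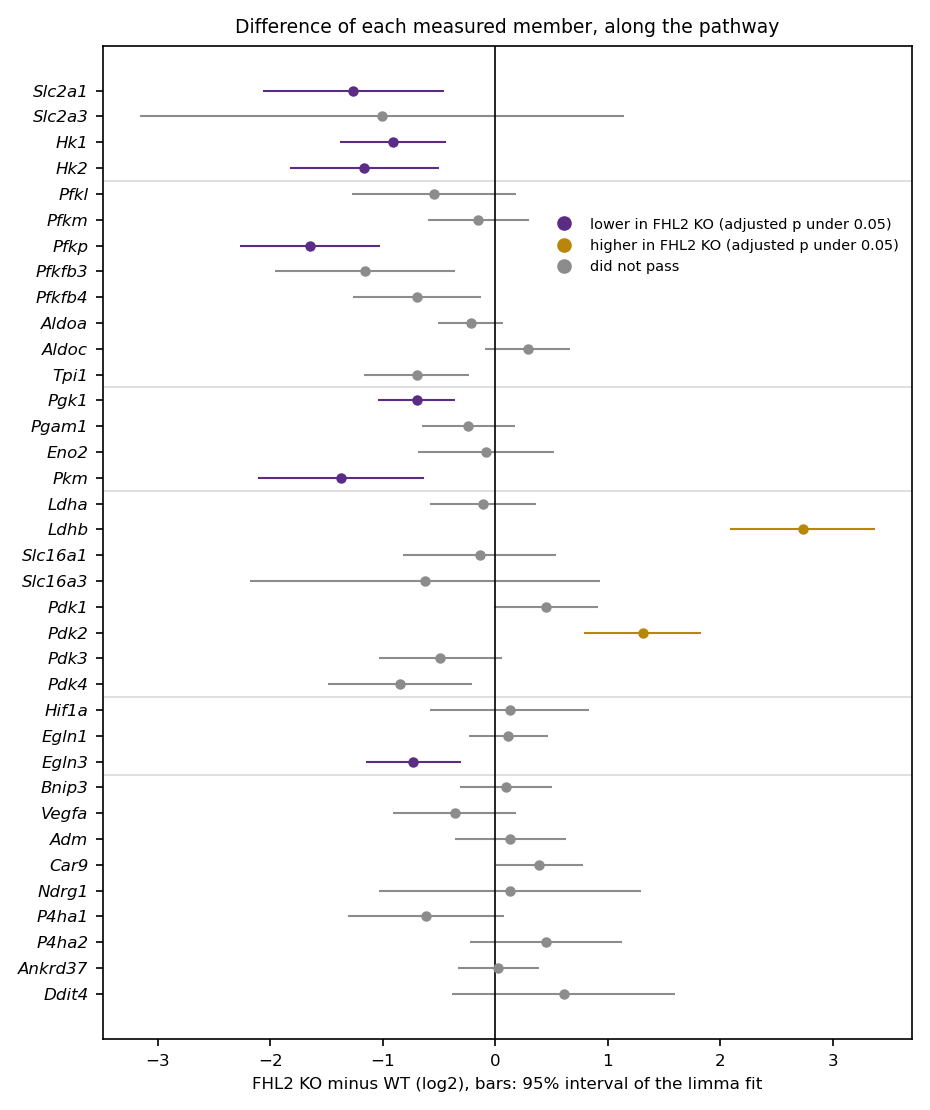
Difference in log2 intensity (FHL2 KO minus WT, horizontal axis) of the 36 measured members in the order of the pathway, with the 95% interval of the limma fit; grey lines part the steps. The points from Slc2a1 to Pkm lie left of 0 apart from Aldoc, Ldhb and Pdk2 lie far right, and the HIF targets from Bnip3 to Ddit4 lie on both sides of 0.

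At the entry of the pathway, the glucose transporter gene Slc2a1 and the genes of both hexokinases fell. Slc2a1, which encodes the widespread basal glucose transporter, was at 7.23, 8.32 and 7.13 in FHL2 KO (clones E, H, J), against 9.06, 8.53 and 8.87 in WT clones E, F and I. Clone H came close to the lowest WT clone, but the groups did not overlap. The difference was -1.26 (SE 0.33, adjusted p = 0.045), a 2.39-fold lower signal. It did not pass after a second quantile normalization (adjusted p = 0.0507). Nor did it pass when letter-suffixed probe sets, with names ending in _a_at, _s_at or _x_at, were dropped (adjusted p = 0.0583).

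Hk1, the hexokinase that sits on mitochondria in most tissues, was at 8.19, 8.90 and 8.30 in FHL2 KO clones and at 9.46, 9.32 and 9.34 in WT clones. It was lower by 0.91 (95% interval -1.38 to -0.43, adjusted p = 0.0244). Hk2, the inducible hexokinase of muscle and of growing cells, was at 6.39, 7.26 and 6.29 in FHL2 KO clones and at 7.96, 7.57 and 7.89 in WT clones. Its difference was -1.16 (95% interval -1.82 to -0.50, adjusted p = 0.032). In each of the 3 genes clone H was the FHL2 KO clone nearest to WT, and clones E and J lay close together below it. The log2 difference Hk1 minus Hk2 within a clone was 1.64 to 2.02 in FHL2 KO clones and 1.44 to 1.76 in WT clones, and the groups overlapped.

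The high-affinity transporter gene Slc2a3 did not pass. Its signal was 3.15, 6.97 and 4.45 in FHL2 KO clones, against 5.83, 5.62 and 6.14 in WT clones, so that clone H lay above all WT clones and clones E and J below them. The difference was -1.01 with a wide 95% interval of -3.16 to 1.14. Without clone H it was -2.07 (adjusted p = 0.00927), and with the letter-suffixed probe sets left out it was 0.15, on a remaining probe set of low signal.

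Of the 3 isoform genes of phosphofructokinase, the committed step, 1 passed. Pfkp, the platelet isoform, was at 5.85, 6.44 and 5.51 in FHL2 KO clones, against 7.84, 7.33 and 7.58 in WT clones. Every FHL2 KO clone lay below every WT clone by a clear margin, and the difference of -1.65 (SE 0.26, adjusted p = 0.00907) was a 3.13-fold lower signal. The mean of its 3 probe sets differed by -1.06 and also passed. Pfkl, the liver isoform, was at 8.32, 9.10 and 8.39 in FHL2 KO clones and at 9.60, 8.66 and 9.17 in WT clones (difference -0.54, 95% interval -1.27 to 0.19). Pfkm, the muscle isoform, was at 9.05, 8.39 and 8.84 in FHL2 KO clones and at 9.02, 8.74 and 8.96 in WT clones (difference -0.15, 95% interval -0.60 to 0.30). The groups overlapped for Pfkl and for Pfkm.

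Within clones the isoform differences of Pfkp shifted between genotypes. Pfkp minus Pfkm was -3.20, -1.95 and -3.34 in FHL2 KO clones and -1.18, -1.41 and -1.38 in WT clones, a shift of -1.50. Pfkp minus Pfkl shifted by -1.11, also without overlap of the groups. The size of such a within-clone difference holds the probe sets' own brightness, and only its shift between genotypes is read.

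The kinases that make the activator of phosphofructokinase, fructose 2,6-bisphosphate, had lower means without passing. Pfkfb3, the inducible form, was at 5.19, 5.46 and 4.19 in FHL2 KO clones and at 6.12, 6.32 and 5.86 in WT clones (difference -1.15, adjusted p = 0.0575). Pfkfb4 was at 5.50, 5.86 and 5.65 in FHL2 KO clones and at 6.87, 6.19 and 6.02 in WT clones (difference -0.69, adjusted p = 0.0924). In both genes every FHL2 KO clone lay below every WT clone, so the groups were apart while the spread kept the adjusted p above 0.05.

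The aldolase genes differed little. Aldoa, the main fibroblast and muscle form, had a difference of -0.22 (95% interval -0.50 to 0.07), and its 5 probe sets gave -0.27 to -0.18. Aldoc, the brain form, was at 3.72, 3.58 and 4.13 in FHL2 KO clones and at 3.58, 3.51 and 3.46 in WT clones. That is a low signal with groups that barely parted (difference 0.29, adjusted p = 0.254). Tpi1, which interconverts the triose phosphates, was at 10.26, 10.65 and 10.17 in FHL2 KO clones and at 11.36, 10.79 and 11.02 in WT clones. The groups were apart, and the difference of -0.70 had an adjusted p of 0.0527 over all genes. Its 3 probe sets gave -0.70 to -0.68.

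**Figure D2:**
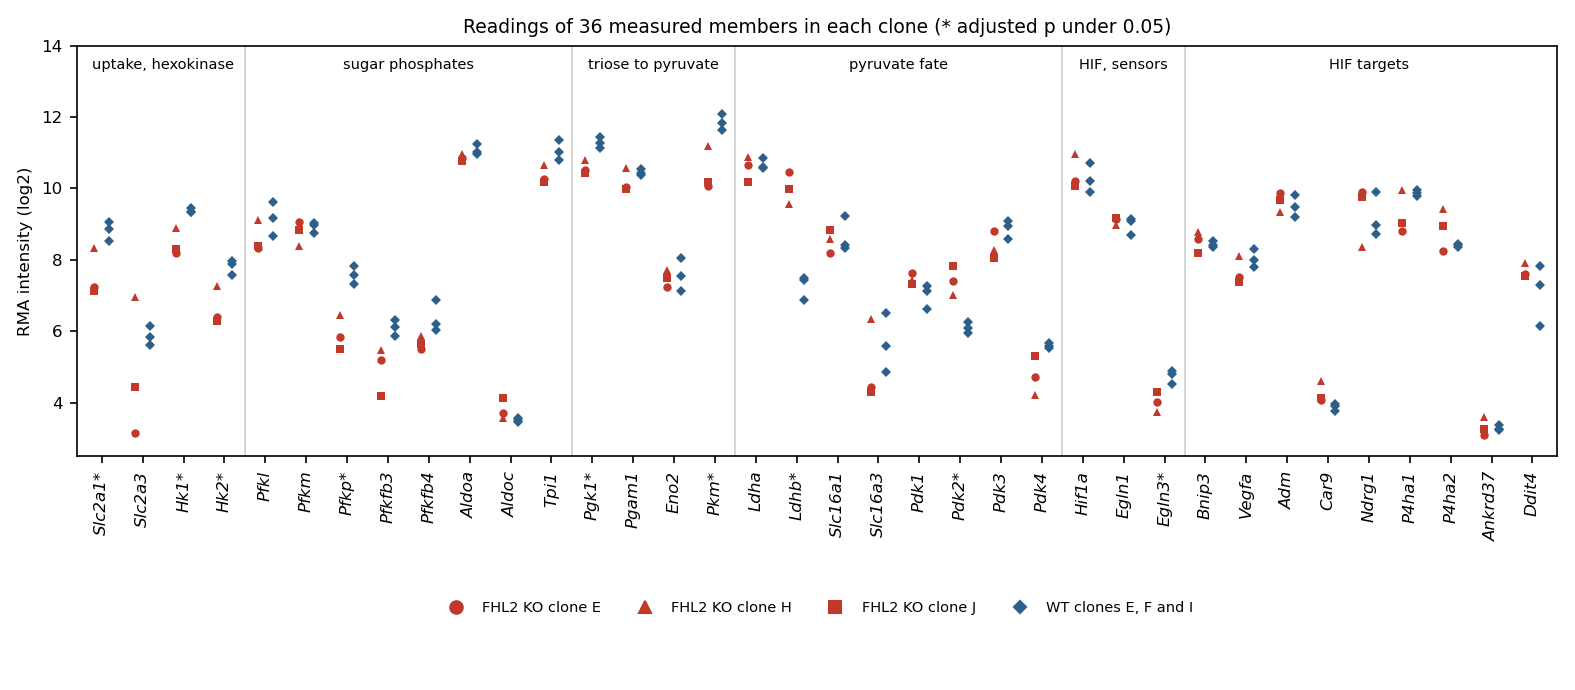
Log2 intensity (vertical axis) of each measured member in every clone, with genes in the order of the pathway (horizontal axis) and 3 FHL2 KO and 3 WT points per gene. FHL2 KO points lie below all WT points for 11 genes, among them Slc2a1, Pfkp and Pkm, and above them for 5, with Ldhb the widest gap.

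In the steps that return ATP, both ATP-making enzymes with a usable probe set fell. Pgk1, phosphoglycerate kinase, was at 10.52, 10.80 and 10.44 in FHL2 KO clones and at 11.45, 11.12 and 11.27 in WT clones. Its difference was -0.70 (SE 0.14, adjusted p = 0.0201), and all 3 of its probe sets passed, at -0.77 to -0.57. Pkm, pyruvate kinase, was at 10.06, 11.18 and 10.19 in FHL2 KO clones and at 12.07, 11.64 and 11.82 in WT clones. Its difference was -1.37 (SE 0.31, adjusted p = 0.027), a 2.58-fold lower signal, with clone H well above clones E and J. The 1 probe set of Pkm does not tell apart the splice forms of pyruvate kinase.

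Between these 2 steps the measured members, Pgam1 and Eno2, differed less. Pgam1, phosphoglycerate mutase, was at 9.99 to 10.57 in FHL2 KO clones and at 10.37 to 10.54 in WT clones, with a difference of -0.24 (95% interval -0.65 to 0.18). Eno2, the neuronal enolase, was at 7.24 to 7.72 in FHL2 KO clones and at 7.12 to 8.04 in WT clones (difference -0.08). For both genes the groups overlapped. The enolase step is not described by Eno2 alone, since Eno1 was not measured. Eno3, the muscle enolase and not a member, had a mean of 9.16 in WT clones. It was lower by 2.45 in FHL2 KO clones (limma, adjusted p = 0.00598).

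Beyond pyruvate, Ldhb stood out. Ldhb, the lactate dehydrogenase subunit of heart-type tissue, was at 10.45, 9.57 and 9.97 in FHL2 KO clones, against 6.86, 7.49 and 7.44 in WT clones. Its lowest FHL2 KO clone lay above its highest WT clone by more than the spread within either genotype. The difference was 2.73 (SE 0.27, adjusted p = 0.0025), a 6.66-fold higher signal, and its 4 probe sets all passed, at 2.73 to 3.36. All 4 have names ending in _a_at or _x_at, so that Ldhb was not measured once letter-suffixed probe sets were dropped.

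Ldha, the subunit of muscle-type lactate dehydrogenase and a HIF target, was at 10.65, 10.87 and 10.18 in FHL2 KO clones and at 10.86, 10.59 and 10.57 in WT clones (difference -0.11, 95% interval -0.58 to 0.36). Its groups overlapped. Ldhb minus Ldha was -0.20, -1.30 and -0.21 in FHL2 KO clones, against -4.00, -3.10 and -3.13 in WT clones. The shift of 2.84 was the largest among the 17 isoform pairs compared.

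The monocarboxylate transporters, which carry lactate across the membrane, did not pass. Slc16a1 was at 8.18 to 8.83 in FHL2 KO clones and at 8.34 to 9.23 in WT clones (difference -0.14). Slc16a3 was at 4.30 to 6.34 in FHL2 KO clones and at 4.86 to 6.51 in WT clones (difference -0.63, 95% interval -2.18 to 0.93). The widths of these intervals leave changes of more than 2-fold in Slc16a3 undetectable with 3 clones per genotype.

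Of the 4 pyruvate dehydrogenase kinase genes 1 passed. Pdk2 was at 7.41, 7.01 and 7.81 in FHL2 KO clones and at 5.94, 6.09 and 6.27 in WT clones. It rose by 1.31 (SE 0.21, adjusted p = 0.0103), a 2.48-fold higher signal, with the groups well apart. Pdk1, the HIF-induced member, was at 7.64, 7.42 and 7.31 in FHL2 KO clones and at 6.62, 7.14 and 7.25 in WT clones. Its groups were apart by a narrow gap, and the difference of 0.45 did not pass (adjusted p = 0.155). The 4 probe sets of Pdk1 gave 0.29 to 0.97, and 0 of them passed when every probe set was tested.

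Pdk4, the member induced by fasting, was at 4.73, 4.20 and 5.30 in FHL2 KO clones and at 5.54, 5.58 and 5.66 in WT clones. It lay lower in every FHL2 KO clone (difference -0.85, adjusted p = 0.0738). Pdk3 was at 8.81, 8.27 and 8.05 in FHL2 KO clones and at 9.07, 8.94 and 8.58 in WT clones (difference -0.49, adjusted p = 0.195), and its groups overlapped. Within clones, Pdk2 minus Pdk4 was 2.68, 2.81 and 2.51 in FHL2 KO clones and 0.40, 0.51 and 0.60 in WT clones, a shift of 2.16 with little spread in either genotype. Pdk2 minus Pdk3 shifted by 1.798 and Pdk2 minus Pdk1 by 0.86, each without overlap.

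**Figure D3:**
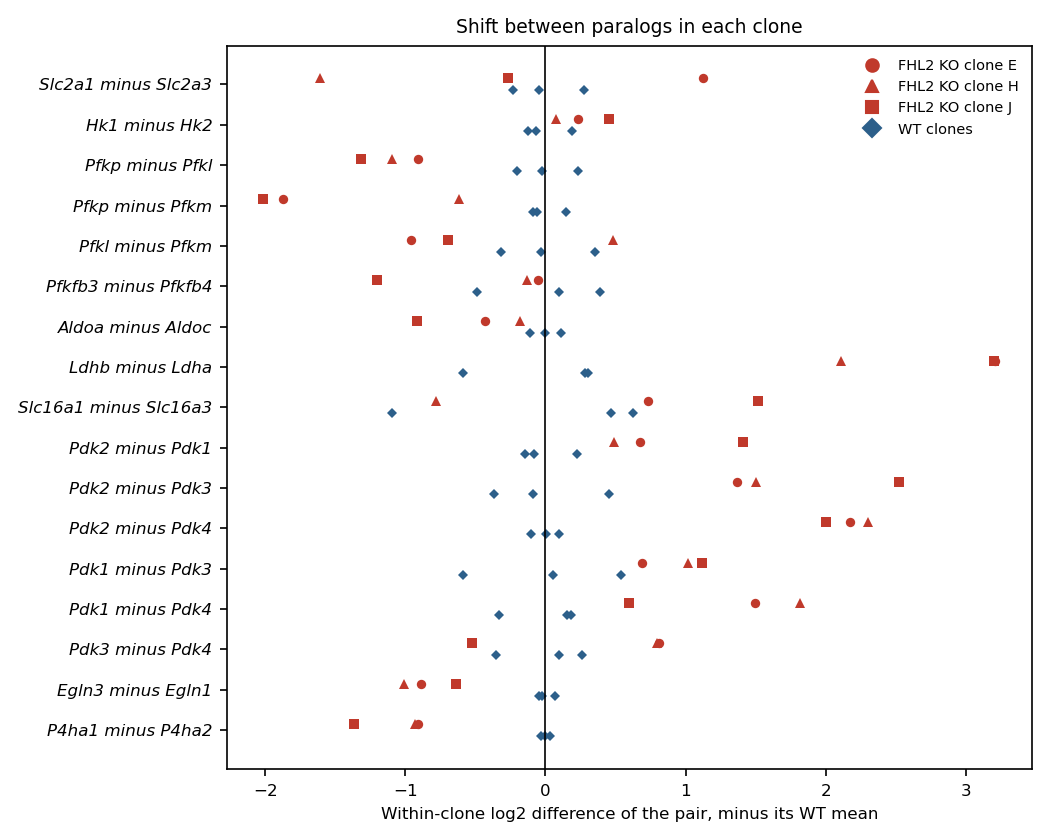
Within-clone log2 difference of each of the 17 isoform pairs, minus its WT mean (horizontal axis), with 1 point per FHL2 KO clone (red) and per WT clone (blue). Ldhb minus Ldha and Pdk2 minus Pdk4 lie right of all WT points in the 3 FHL2 KO clones, and Pfkp minus Pfkm and P4ha1 minus P4ha2 lie left of them.

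Of the 17 isoform pairs, 11 had within-clone differences that did not overlap between genotypes. The pairs are not independent, since Pdk2 stands in 3 of them and Pfkp in 2, and over single genes the groups were already apart in 18.2% (lower) and 20.7% (higher). With 3 clones against 3, the 20 possible assignments allow no 2-sided exact permutation p under 0.1, which these 11 pairs reached, and the adjusted p over the 17 pairs was 0.1545. No pair could therefore pass a threshold of 0.05, and the shifts are given as sizes.

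HIF and its sensors showed 1 change among 3 genes. Hif1a, the oxygen-regulated subunit, was at 10.19, 10.95 and 10.07 in FHL2 KO clones and at 10.22, 9.91 and 10.70 in WT clones (difference 0.13, 95% interval -0.58 to 0.84). HIF is controlled mainly through the stability of its protein, which an array of RNA does not measure. Egln3, a prolyl hydroxylase gene that HIF itself induces, was at 4.01, 3.73 and 4.30 in FHL2 KO clones and at 4.80, 4.89 and 4.53 in WT clones. It fell by 0.73 on the log2 scale (SE 0.18, adjusted p = 0.0349) at a low signal, and both of its probe sets passed.

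Egln1, the main oxygen sensor, was at 9.13, 8.97 and 9.18 in FHL2 KO clones and at 9.08, 9.14 and 8.70 in WT clones (difference 0.12). Its second probe set gave -0.45 and passed when every probe set was tested (adjusted p = 0.0486), so the direction of Egln1 depends on the probe set. Egln3 minus Egln1 shifted by -0.85 within clones.

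Among the 9 HIF targets measured outside glycolysis, 0 passed in limma (1, Car9, at an unadjusted p under 0.05), 7 had a difference above 0 and 2 below it, and the median was 0.13, against 0.04 over all genes. Vegfa, the vascular growth factor, was at 7.51, 8.12 and 7.38 in FHL2 KO clones and at 7.81, 7.98 and 8.29 in WT clones (difference -0.36, 95% interval -0.91 to 0.19). Car9, the carbonic anhydrase widely used as a marker of hypoxia, was at 4.08, 4.59 and 4.12 in FHL2 KO clones and at 3.91, 3.95 and 3.76 in WT clones. Its groups were apart at a low signal (difference 0.39, adjusted p = 0.147).

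The 2 collagen prolyl 4-hydroxylase subunits lay on opposite sides of 0. P4ha1 was at 8.80, 9.94 and 9.03 in FHL2 KO clones and at 9.86, 9.95 and 9.80 in WT clones (difference -0.61, adjusted p = 0.198). P4ha2 was at 8.24, 9.41 and 8.94 in FHL2 KO clones and at 8.40, 8.46 and 8.37 in WT clones (difference 0.45, adjusted p = 0.317). P4ha1 minus P4ha2 was 0.56, 0.53 and 0.09 in FHL2 KO clones, against 1.46, 1.50 and 1.43 in WT clones, so that all 3 FHL2 KO clones, clone H included, lay apart from WT.

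The other 5 targets had groups that overlapped. Bnip3, a mitophagy receptor, had a difference of 0.10 (95% interval -0.31 to 0.50), and Adm, the vasodilator adrenomedullin, one of 0.14 (-0.36 to 0.63). For Ankrd37 the difference was 0.03 at a signal of 3.08 to 3.60 in FHL2 KO clones and 3.23 to 3.38 in WT clones. Ndrg1 spread widely in both genotypes, at 8.36 to 9.90 in FHL2 KO clones and 8.73 to 9.90 in WT clones (difference 0.13, 95% interval -1.03 to 1.29). Ddit4, an inhibitor of mTOR signalling, was at 7.54 to 7.92 in FHL2 KO clones and at 6.13 to 7.84 in WT clones (difference 0.61, 95% interval -0.39 to 1.60).

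Counted without a test, 11 of the 36 members had every FHL2 KO clone below every WT clone, and 5 had every FHL2 KO clone above. Over all genes these shares were 18.2% and 20.7%. From uptake to pyruvate 9 of 16 members lay wholly below and 1 wholly above, and among the 9 HIF targets 0 lay wholly below and 1 above.

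Along the glycolytic steps the median distance from WT was smaller in clone H than in clones E and J. Relative to the WT mean of each gene, the median of the 16 genes from uptake to pyruvate was -0.84, -0.48 and -0.87 in FHL2 KO clones E, H and J, and 0.16, -0.17 and -0.03 in WT clones E, F and I. Clone H had the highest signal of the FHL2 KO clones in 14 of these 16 genes, or 87.5%, and in 7 of the 9 HIF targets, or 77.8%, against 35.3% of all genes. Among the 9 members that passed, clone H was the FHL2 KO clone nearest to the WT mean in 8, or 88.9%, against 51.8% of the 3464 genes that passed. For the HIF targets the medians were 0.17, 0.31 and 0.18 in FHL2 KO clones E, H and J.

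**Figure D4:**
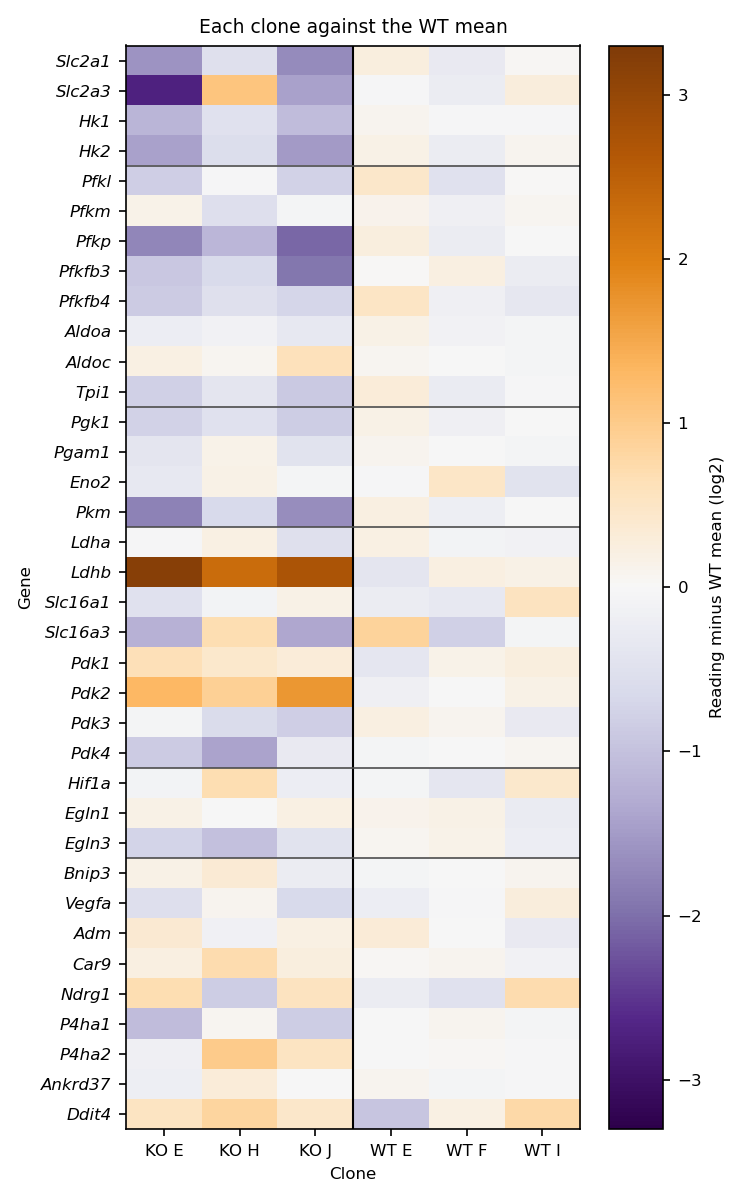
Distance of each measured member from its WT mean (colour, log2) in the 3 FHL2 KO and 3 WT clones, with genes in the order of the pathway. The rows from Slc2a1 to Pkm are mostly negative in FHL2 KO clones E and J and less so in clone H, while Ldhb and Pdk2 are positive in all 3.

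Without clone H, 13 members passed as lower and 2 as higher, and 10 of the 16 genes from uptake to pyruvate passed as lower. In that fit 2446 of all 18193 genes passed as lower and 2304 as higher, against 1820 and 1644 with all 6 clones. The 6 gained were Slc2a3, Pfkfb3, Tpi1 (-0.84, adjusted p = 0.018), Pgam1 (-0.42, adjusted p = 0.0386), Vegfa (-0.58, adjusted p = 0.045) and P4ha1 (-0.96, adjusted p = 0.0031), the last 2 being HIF targets. With any other clone left out the number of lower members was 1 to 3, against 7 with all 6 clones, while 4.86% to 6.51% of all genes passed as lower. P4ha2, a HIF target, passed as higher without FHL2 KO clone E (0.76, adjusted p = 0.0464), and Pdk4 passed as lower without FHL2 KO clone J (-1.13, adjusted p = 0.0267). Pfkp, Ldhb and Pdk2 passed in all 6 fits that left out 1 clone. Slc2a1, Hk1, Hk2 and Pkm passed only in the fit without FHL2 KO clone H, with adjusted p up to 0.147, 0.0909, 0.114 and 0.101 in the other 5. Pgk1 lost its call without FHL2 KO clone E or J or WT clone E or I (adjusted p up to 0.0719). Egln3 lost it without FHL2 KO clone E or WT clone E, F or I (up to 0.116).

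Among genes of neighbouring pathways, of 36 other glycolysis and pyruvate genes 2 rose and 2 fell. That is 5.56% each way, below the 9.04% and 10.0% of all genes. Eno3, the muscle enolase, fell by 2.45 on the log2 scale (adjusted p = 0.00598), and Tigar, a phosphatase that lowers fructose 2,6-bisphosphate, fell by 1.43 (adjusted p = 0.00415). Pdp1, a phosphatase that reverses the action of the pyruvate dehydrogenase kinases, rose by 1.07 (adjusted p = 0.00494). Dld, a subunit shared by pyruvate dehydrogenase and other complexes, rose by 0.60 (adjusted p = 0.0386).

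In the pentose phosphate pathway, which branches from glycolysis after hexokinase, 3 of 9 genes fell and 0 rose in limma (1 at an unadjusted p under 0.05). Pgd, 6-phosphogluconate dehydrogenase, differed by -1.17 (adjusted p = 0.00353), Rpia, the ribose-phosphate isomerase, by -0.90 (adjusted p = 0.00548) and Tkt, transketolase, by -1.11 (adjusted p = 0.012). Of 18 genes of the tricarboxylic acid cycle 1 rose, Dlst (0.57, adjusted p = 0.0396), and 2 fell, Sdhb (-0.86, adjusted p = 0.0113) and Sucla2 (-1.10, adjusted p = 0.0146). In the pentose phosphate list 33.3% fell, and in the tricarboxylic acid list 11.1% fell and 5.56% rose. Over all genes 10.0% passed as lower and 9.04% as higher. All 9 and all 18 genes lay at or above the median gene level. Genes at that level, fitted on their own, passed as lower in 19.0% and as higher in 15.5%. The medians of the 2 lists were -0.13 and -0.07.

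Of 17 other genes of the HIF system 1 rose, the ubiquitin ligase gene Siah1a (0.44, adjusted p = 0.0295). The 3 that fell were Cul2 (-0.67, adjusted p = 0.0258) and Tceb1 (-0.79, adjusted p = 0.0284), both parts of the ligase complex that marks HIF for degradation, and Ep300, a HIF coactivator (-0.46, adjusted p = 0.0415). The direction of Tceb1 turned to 0.06 when letter-suffixed probe sets were left out. Of 45 further HIF targets 5 rose and 7 fell, or 11.1% and 15.6%. These shares are near those of all genes (9.04% and 10.0%). Genes at or above the median level, in a separate fit of those genes alone, gave 15.5% and 19.0%. Of the 45 targets 32 lay at that level.

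Among those that rose were Tet1 (1.35, adjusted p = 0.00253) and Vldlr (0.92, adjusted p = 0.0184), a DNA demethylase and a lipoprotein receptor. Kdm2b (0.63, adjusted p = 0.0228) and Rcor2 (0.71, adjusted p = 0.0265), both chromatin regulators, also rose. Those that fell with the smallest p were Lonp1, a mitochondrial protease (-1.15, adjusted p = 0.00243), the cytokine gene Mif (-1.81, adjusted p = 0.00688), Ero1a, an oxidase of protein folding (-1.63, adjusted p = 0.00725), and Rsbn1 (-0.52, adjusted p = 0.0209). Of the 22 named genes in these neighbouring lists, 9 passed in all 6 fits that left out 1 clone: Eno3, Ero1a, Lonp1, Mif, Pdp1, Pgd, Rpia, Tet1 and Tigar. When the probe sets of a gene were averaged, 5 of the 22 no longer passed: Siah1a (0.19, adjusted p = 0.317), Dlst (0.27, adjusted p = 0.128), Cul2 (-0.58, adjusted p = 0.107), Tceb1 (-0.29, adjusted p = 0.214) and Sucla2 (-0.28, adjusted p = 0.162). Mif (-0.42) and Tigar (-0.91) still passed with a smaller difference. When letter-suffixed probe sets were dropped, Vldlr (0.60, adjusted p = 0.074) and Cul2 (-0.50, adjusted p = 0.317) did not pass. Lonp1 was not measured in that setting, since the name of its 1 probe set ends in _a_at.

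Several probe sets per gene served as a check. The 36 members had 75 probe sets of their own, and of the 20 members with more than 1, 15 had all differences on 1 side of 0. The 5 with both signs were Slc2a3, Pfkl, Slc16a1, Egln1 and Ndrg1, and 0 of these passed in the comparison of genes. Among the members that passed, 2 of 2 probe sets of Hk1 passed, 2 of 3 of Slc2a1 and 2 of 3 of Pfkp, all on 1 side. Hk2, Pkm and Pdk2 rest on 1 probe set each. As a measure of RNA quality, the 3' minus 5' signal of the Gapdh control probe sets was -0.119 to -0.045 in FHL2 KO clones and -0.041 to 0.052 in WT clones, and the part of this in the results was not tested. Array medians were 4.52 to 4.54 in FHL2 KO clones and 4.44 to 4.46 in WT clones.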

How the data were processed

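Total RNA of each of the 6 clones had gone through 1 round of 3' amplification with biotin labelling, per the labels' protocols, and was read on 1 Affymetrix array. The deposited values are log2 intensities that the authors made with RMA, per the submitters' processing notes, a method of background correction, quantile normalization and probe summary (version not given in the sources used here). WT clone E is written with more decimals than the other arrays, and whether it was processed apart was not tested. Arrays have no read depth; 3 clones per genotype (4 residual degrees of freedom) set the precision.

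Of 45101 probe sets, 64 controls, 932 with several symbols and 9160 without a name were left out. The other 34945 stood for 18193 genes, each taken at its probe set with the highest mean; gene names came from the platform annotation, of which 34741 probe sets were found in RefSeq. FHL2 KO and WT clones were compared in limma 3.58.1 (R 4.3.3, lmFit and eBayes, no covariate), with Benjamini-Hochberg adjustment over all 18193 genes and a threshold of 0.05. The procedure was tested on simulated data. Isoform pairs were compared by the exact 2-sided permutation test of scipy 1.17.1 on within-clone differences.

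The members, the neighbouring gene lists and the marker lists were chosen with earlier results of these data known. Values in every clone are given for members that passed or whose genotypes did not overlap, for their isoforms and for Fhl2. Of each neighbouring list up to 4 genes per direction are named, those with the smallest unadjusted p among genes that passed. Promoters are RefSeq windows of assembly GRCm38.p6, used for sequence only. Alternatives tried were other variance priors, normalizations, probe set choices, a level filter, array weights, a fold threshold and leaving out each clone.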

Additional observations from a re-analysis of the deposited data

How the results depend on the processing

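Over 15 alternatives and 36 members, 453 of 525 recomputed differences kept their direction and their side of the threshold, 33 no longer passed, 15 newly passed and 24 changed sign. The 453 say little about the calls, since 27 of the 36 members had no call to lose. Some alternatives also changed only the test or its threshold and not the difference. Of the 9 members that passed, only Pfkp, Ldhb and Pdk2 did so in all 6 fits that left out 1 clone. None of the members that changed sign had passed. With 1 clone left out in turn, the number of members lower in FHL2 KO was 1 to 13 and that from uptake to pyruvate 1 to 10, and the number higher was 2 to 3. Requiring at least 2-fold left 4 lower members. Without letter-suffixed probe sets, 29 members were measured, since Hk1, Aldoa, Tpi1, Pgam1, Eno2, Ldha and Ldhb had no other. Of these 29, 1 was higher (Pdk2, Ldhb being unmeasured) and 5 were lower, 4 of them from uptake to pyruvate. In that setting Slc2a3 was at 0.15, Pfkl at 0.12 and Tceb1 (Eloc) at 0.062, and Slc2a1 no longer passed (adjusted p = 0.0583). After a second quantile normalization Ankrd37 was at -0.025 and Slc2a1 did not pass (adjusted p = 0.0507). After median centring the median of the HIF targets was 0.055 and Ankrd37 was at -0.049. Array weights put that median at 0.22, Hif1a at -0.053, Bnip3 at -0.0085 and Ankrd37 at -0.053. Differences that changed sign when 1 clone was left out ranged from -0.29 to 0.038 for Pfkm, -0.30 to 0.16 for Eno2, -0.26 to 0.087 for Ldha, -0.30 to 0.14 for Slc16a1, -0.14 to 0.34 for Hif1a, -0.017 to 0.20 for Egln1, -0.035 to 0.27 for Bnip3, -0.019 to 0.30 for Adm, -0.15 to 0.62 for Ndrg1 and -0.11 to 0.14 for Ankrd37. With probe sets averaged Egln1 was at -0.16 and Pfkp at -1.06. The cause of these changes was not tested. With 3 clones per genotype, members with a wide spread between clones, such as Slc2a3, Slc16a3 and Ndrg1, could have changed by more than 2-fold without passing. No paired analysis was possible because the genotypes share only 1 clone letter, and the labels do not say what it means.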

Other observations

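Gapdh, glyceraldehyde-3-phosphate dehydrogenase, is absent from the comparison of genes because its probe sets are controls or shared with other symbols. The 3 control probe sets for its transcript were nonetheless read on each array. The 3' one was at 11.95, 12.41 and 11.90 in FHL2 KO (clones E, H, J), against 12.95, 12.79 and 12.73 in WT clones E, F and I, a difference of -0.73. The middle one differed by -0.68 and the 5' one by -0.64. All 3 lay lower in every FHL2 KO clone, with clone H the nearest to WT, as for the neighbouring steps Tpi1 and Pgk1. They were not tested with the genes.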
